A study of Homo sapiens with 4 samples.

Results

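The kinesins are microtubule motors, and the genes described here are those listed under a symbol made of KIF, a number and at most a subfamily letter and digit. Of 25066 genes measured in a human lymphoma line, 39 carried such a symbol, and 33 of them were above 0 in at least 2 of the 4 libraries, among 16945 genes that passed that filter. The 33 comprised 13 of 14 mitotic kinesins, 12 of 13 transport kinesins and 8 of 12 ciliary and other kinesins. The 6 that were not tested had at most 3 reads in any library: KIF2B, KIF13A, KIF6, KIF19, KIF25 and KIF26A. Just outside the filter, KIF13A had 3 reads in 1 control library and KIF2B 1 read in 1 GNA13-deficient library, and the other 4 had none, while just inside it KIF5A had 2 reads in each of 2 libraries.

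NUDUL1 is a cell line from a diffuse large B cell lymphoma of the germinal center type, a cancer in which the Gα13 subunit encoded by GNA13 is often lost. A single-cell clone carrying doxycycline-inducible Cas9 received either a control guide (sgControl) or a guide against GNA13 (sgGNA13), 1 guide for each genotype, and all cells were also transduced with the thromboxane receptor Tbxa2r. The cells of all 4 libraries were treated for 24 hours with U46619, a thromboxane A2 analog that activates this receptor, at 10 nM per the labels. Bulk mRNA was sequenced from 2 control and 2 GNA13-deficient libraries, and the comparison asks how loss of GNA13 changes expression while the receptor is engaged, so no library shows the untreated state. Nothing in the labels says that the 2 libraries of a genotype came from separate cultures, so the p-values measure only the spread between these libraries, which may be technical. As each genotype is 1 clone-derived line with 1 guide, guide effects and genotype effects cannot be told apart.

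Kinesins convert the energy of ATP into steps along microtubules, most of them toward the plus end. One set builds and takes apart the mitotic spindle: these motors slide antiparallel microtubules, shorten microtubule ends, move chromosomes and assemble the midzone where the daughter cells divide, and many are made mainly in the G2 and M phases. Another set carries vesicles, mitochondria and ciliary cargo in cells at any stage, and dividing cells use both.

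The libraries held 29209544 and 31537955 mapped reads in the control cells and 30141459 and 29685942 in the GNA13-deficient cells. GNA13 mRNA itself was higher, not lower, in the cells labelled GNA13-deficient. Its log2 value was 13.10 and 13.11 there, in place of 12.46 and 12.45 under the control guide (difference 0.65, SE 0.05, limma adjusted p = 0.00214), so the transcript level does not check the genotype, and each direction given here depends on the labels. Of 10 germinal center B cell markers 9 were above 0 in all libraries and SERPINA9 was at 0 in all of them. The 13 markers of other cell types summed to 423 and 447 reads in the control libraries and 130 and 140 in the GNA13-deficient ones, with CD3D, CD3E, HBB, HBA1 and KRT18 at 0 throughout, and the part of this difference in the kinesin results was not tested. Within that list CD33 (182 and 197 against 3 and 2 reads), PECAM1 (112 and 115 against 11 and 16 reads) and LYZ (83 and 83 against 11 and 17 reads) were lower, and EPCAM was higher (37 and 46 against 88 and 97 reads). Across all tested genes 5037 (29.7%) passed the limma test at a Benjamini-Hochberg adjusted p of 0.05, 2218 of them higher (13.1%) and 2819 lower (16.6%) in GNA13-deficient cells, with a median difference of -0.02. Centring each library on its median gene moved that median to 0.18 and the share of higher among called genes from 44% to 69.1%.

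Most mitotic kinesins were higher in GNA13-deficient cells, and most transport kinesins did not pass the test in either direction. Of 13 mitotic kinesins 11 rose, 1 fell and 1 did not pass the test, with a median log2 difference of 0.80. That count of 11 fell to 5 when no filter on low values was used and to 6 with no mean-variance trend. Of 12 transport kinesins 1 rose, none fell and 11 did not pass the test, with a median of 0.06. By limma no transport kinesin passed the adjusted threshold downward, while 2 had an unadjusted p under 0.05 with a negative difference: KIF3A, and KIF1A, whose 0 to 2 reads a library are too few to support a direction. Limma voom on the recovered reads also called 0 lower, whereas a filter at the median level called 2 (KIF3A and KIF3C), the replicate block 1 (KIF3A) and leaving out control replicate 1 called 1 (KIF3C). Of 8 ciliary and other kinesins 2 rose and 6 did not pass, with a median of 0.13. Over all 33 members 14 rose and 1 fell, 45.5% called against 29.7% of all genes. All differences are GNA13-deficient minus control on the log2 scale of normalized reads, with 2 libraries for each genotype, and their standard errors (SE) and adjusted p-values come from limma fitted across all tested genes. Where the genotypes are said not to overlap, this only describes the libraries, and the share of all genes without overlap was not counted. In bulk RNA, more cells at the stage of the cycle where a gene is transcribed and more RNA per cell cannot be told apart.

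**Figure D1:**
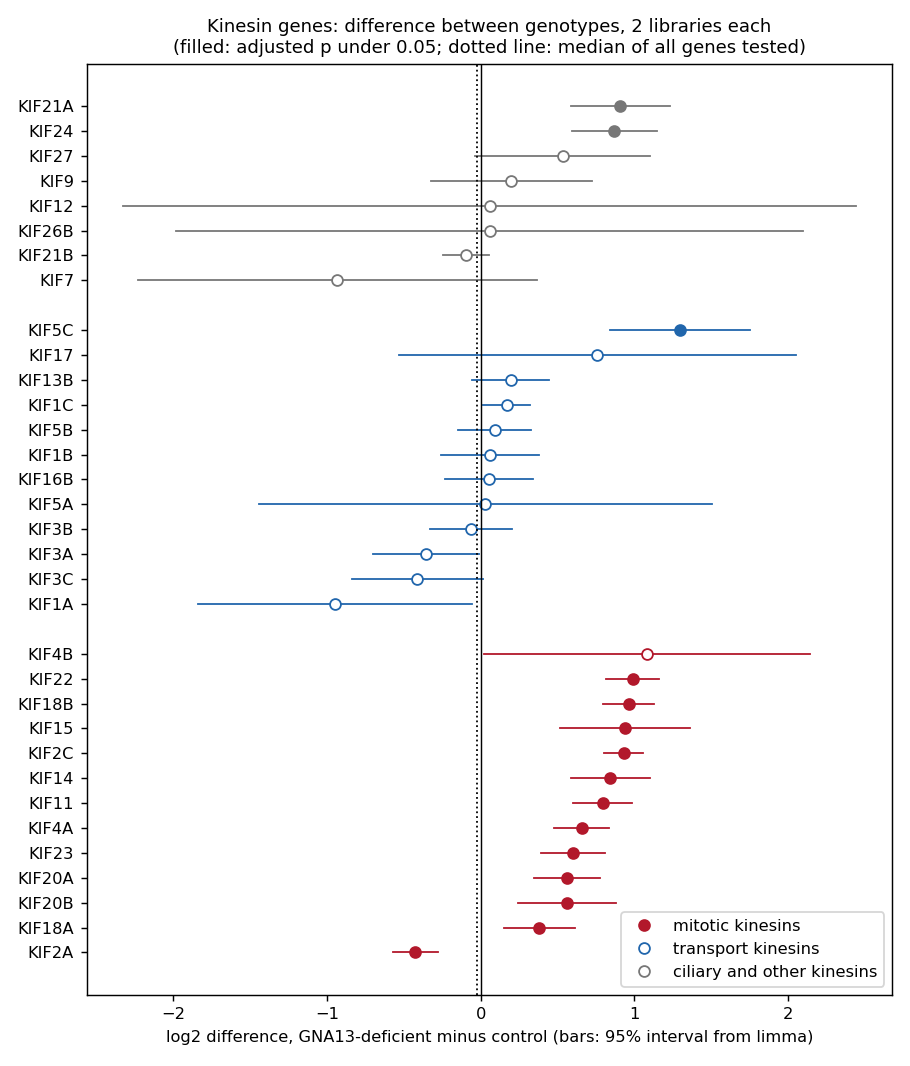
Difference in log2 normalized reads, GNA13-deficient minus control, for the 33 tested kinesins arranged by class, with 95% confidence intervals from limma (2 libraries per genotype). Mitotic kinesins lie to the right of 0 apart from KIF2A, at -0.43, while KIF5C, at 1.30, is the transport kinesin that passed the adjusted test. The intervals of KIF4B, KIF1A, KIF3A and KIF1C also leave out 0, without passing after adjustment.

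The motors that push the spindle poles apart or focus them were among those that rose. KIF11, the plus-end motor that crosslinks antiparallel microtubules and pushes the poles apart, stood at 11.91 and 11.78 in control libraries and at 12.70 and 12.58 in GNA13-deficient ones. Both GNA13-deficient values lay above both control values, and the rise was 0.80 (SE 0.07, adjusted p = 0.003), a factor of 1.74. KIF15, which can take over spindle bipolarity when KIF11 is impaired, stood at 10.04 and 9.58 against 10.81 and 10.69. Its control libraries differed from each other by more than those of KIF11, and the rise of 0.94 carried a wider error (SE 0.16, adjusted p = 0.0147). KIFC1, a minus-end motor that focuses poles and clusters extra centrosomes and whose symbol falls outside the chosen pattern, was 10.85 and 10.88 against 11.29 and 11.34, a rise of 0.45 (adjusted p = 0.00548).

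The motors that shorten or restrain microtubule ends did not move together. KIF2C, which depolymerizes microtubules at the centromere and corrects faulty chromosome attachments, stood at 10.96 and 10.94 in control libraries and 11.90 and 11.87 in GNA13-deficient ones. This was the mitotic kinesin with the smallest adjusted p, with a rise of 0.93 (SE 0.05, adjusted p = 0.00115) and replicates of each genotype within 0.03 of each other. KIF18B, which limits the length of astral microtubules, stood at 9.82 and 9.76 against 10.80 and 10.71 and rose by 0.96 (SE 0.06, adjusted p = 0.00162). KIF18A, which damps the oscillation of chromosomes by acting at kinetochore microtubule ends, rose less, from 9.48 and 9.28 to 9.77 and 9.76 (difference 0.38, SE 0.09, adjusted p = 0.0336). The KIF18A call was lost when any of 3 libraries was left out, with adjusted p = 0.108 without control replicate 2, 0.0954 without GNA13-deficient replicate 1 and 0.101 without GNA13-deficient replicate 2.

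KIF2A, a relative of KIF2C that depolymerizes microtubules at spindle poles and also works in interphase cells, was the exception among the mitotic kinesins. It stood at 11.44 and 11.39 in control libraries and 11.02 and 10.95 in GNA13-deficient ones, a fall of 0.43 on the log2 scale (SE 0.06, adjusted p = 0.00723) with no overlap between genotypes. Median centring, which moves all differences upward by the same amount, reduced the fall of KIF2A to -0.22 (adjusted p = 0.0334). The annotated KIF2A gene (GRCh37 chr5:61601989-61686852, plus strand) shares at least 1799 exonic bases with DIMT1 on the opposite strand. The sources used here do not say whether reads were counted by strand. DIMT1, listed as DIMT1L, was also lower, at 10.15 and 10.03 against 9.74 and 9.78 (difference -0.33, adjusted p = 0.026), and without stranded counting the reads of the 2 genes in the shared bases cannot be told apart.

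Of the chromokinesins, which bind chromosome arms, KIF22 and KIF4A rose. KIF22, which pushes chromosome arms toward the spindle equator, stood at 11.14 and 11.11 in control libraries and 12.04 and 12.19 in GNA13-deficient ones, and its rise of 0.99 (SE 0.07, adjusted p = 0.00169) was a factor of 1.98. KIF4A, which acts on chromosome structure and on the length of midzone microtubules, stood at 10.27 and 10.23 against 10.98 and 10.84 and rose by 0.66 (SE 0.07, adjusted p = 0.00396). KIF4B, an intronless copy of KIF4A on chromosome 5, was the mitotic kinesin that did not pass the test. It had 17 and 10 reads in control libraries and 29 and 24 in GNA13-deficient ones (difference 1.09, adjusted p = 0.113). Because 14% of the 50-base words of KIF4B also occur in KIF4A, some of these few reads may belong to KIF4A, and the KIF4B level is uncertain.

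The motors of the spindle midzone and of cytokinesis rose by 0.56 to 0.845. KIF23, the motor subunit of centralspindlin, stood at 10.44 and 10.26 in control libraries and 10.99 and 10.92 in GNA13-deficient ones, a rise of 0.60 (SE 0.08, adjusted p = 0.00737). KIF20A, which helps to bring the chromosomal passenger complex to the midzone, was 10.43 and 10.27 against 10.98 and 10.86, a rise of 0.56 (SE 0.08, adjusted p = 0.00919). KIF14, which recruits citron kinase to the midbody, was 9.67 and 9.48 against 10.50 and 10.33, a rise of 0.845 (SE 0.10, adjusted p = 0.0053). In all 3 genes both GNA13-deficient libraries were above both control libraries, but the share of all genes separated in this way was not counted. KIF20B, which acts late in cytokinesis, was 10.04 and 9.71 against 10.47 and 10.41, a rise of 0.56 (SE 0.12, adjusted p = 0.0276) that missed the threshold without GNA13-deficient replicate 1 (adjusted p = 0.0737) or replicate 2 (adjusted p = 0.0694). CENPE, the kinetochore motor that carries chromosomes to the equator and whose symbol falls outside the pattern, was 9.26 and 8.48 against 9.51 and 9.22 and did not pass the test (difference 0.50, SE 0.27, adjusted p = 0.244). Its control libraries lay 0.78 apart, more than the difference between genotypes, and the CENPE difference was 0.89 without control replicate 1 (adjusted p = 0.0116) and 0.11 without control replicate 2 (adjusted p = 0.653).

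**Figure D2:**
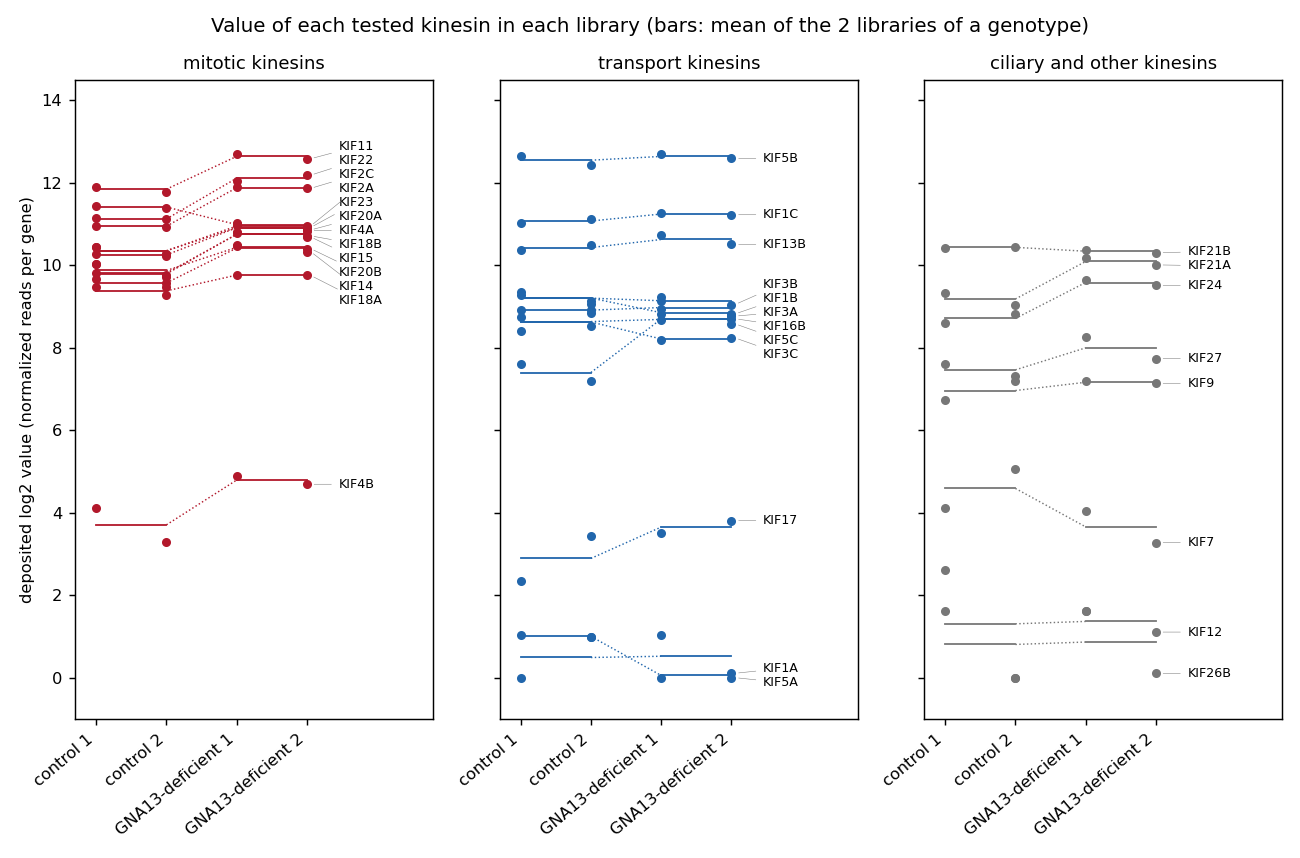
Log2 normalized reads in each of the 4 libraries for every tested kinesin, with points for single libraries and bars for the genotype mean. Points of the genotypes do not overlap for KIF11 (up to 11.91 in control, from 12.58 in GNA13-deficient cells), and KIF2A runs in the opposite direction, while KIF5B overlaps.

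The sequence just before the transcription start is shown for 6 mitotic kinesins because elements common in promoters of genes of the G2 and M phases sat there in several, though not all, of the genes that rose. A set of 3 motifs was searched on both strands in RefSeq promoter windows (GRCh38.p14, 250 bases before to 50 after the start, 35116 windows of 27305 genes): the cell cycle genes homology region (CHR), TTTGAA; the CCAAT box, CCAAT; and an E2F motif, TTTNGCGC. The letters of the 3 motifs do not contain one another, and windows were found for 33 of 39 kinesin genes, 14 mitotic, 11 transport and 8 other. The stretches below are the last 120 bases before the start, 5′ to 3′ in the direction of transcription, with capitals marking every match to the motifs, and coordinates are of GRCh38 whereas the expression files were made on hg19. KIF11 and KIF4A show a CCAAT box (read as ATTGG) followed by a CHR, as do KIF23 and KIF18A, in which the order along the gene is the same. KIF15 holds an E2F motif directly followed by a CHR, and KIF2A, the mitotic kinesin that fell, holds none of the 3. KIF2C, which rose with the smallest adjusted p of the mitotic kinesins, also holds none of the 3 anywhere in its window, so the stretches shown were chosen for their motifs and do not stand for all kinesins that rose.
KIF11, chr10:92593010-92593129, plus strand: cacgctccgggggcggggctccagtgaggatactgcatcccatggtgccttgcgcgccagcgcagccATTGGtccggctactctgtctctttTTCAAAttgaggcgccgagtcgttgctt
KIF4A, chrX:70289984-70290103, plus strand: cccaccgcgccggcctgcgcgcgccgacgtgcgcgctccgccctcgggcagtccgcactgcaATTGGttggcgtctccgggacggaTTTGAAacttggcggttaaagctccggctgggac
KIF23, chr15:69414229-69414348, plus strand: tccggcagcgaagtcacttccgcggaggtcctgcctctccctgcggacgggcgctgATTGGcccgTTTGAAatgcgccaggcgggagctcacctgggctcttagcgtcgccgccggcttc
KIF18A, chr11:28108157-28108276, minus strand: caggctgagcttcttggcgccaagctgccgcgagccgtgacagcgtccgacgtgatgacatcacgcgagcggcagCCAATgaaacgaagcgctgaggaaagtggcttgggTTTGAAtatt
KIF15, chr3:44761674-44761793, plus strand: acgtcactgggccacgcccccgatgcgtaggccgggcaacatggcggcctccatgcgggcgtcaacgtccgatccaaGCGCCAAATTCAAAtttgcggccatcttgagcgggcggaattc
KIF2A, chr5:62306086-62306205, plus strand: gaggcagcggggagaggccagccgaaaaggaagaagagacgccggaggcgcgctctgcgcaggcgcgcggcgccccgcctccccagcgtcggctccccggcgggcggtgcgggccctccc

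Across the whole 300-base windows, a CHR occurred in 9 of 14 mitotic kinesins (64.3%), 1 of 11 transport kinesins (KIF5B) and 0 of 8 others, against 18.2% of all genes and 14.6% of the tested genes with a window. Mitotic kinesins with a CHR were KIF4A, KIF4B, KIF11, KIF14, KIF15, KIF18A, KIF18B, KIF20B and KIF23, and those without were KIF2A, KIF2B, KIF2C, KIF20A and KIF22. Thus KIF22 and KIF2C, among the mitotic kinesins with the largest called differences, had no CHR in this window. A CCAAT box occurred in 10 of 14 mitotic, 4 of 11 transport and 3 of 8 other kinesins, against 39.7% of all genes. A CHR and a CCAAT box in the same window occurred in 8 of 14 mitotic kinesins, 1 of 11 transport kinesins and 0 of 8 others, against 7.26% of all genes. The E2F motif was rare, in KIF15 among mitotic kinesins and in KIF6 among the others, against 2.17% of all genes. A match is a description of letters, not of a bound site, and no binding was measured here.

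**Figure D3:**
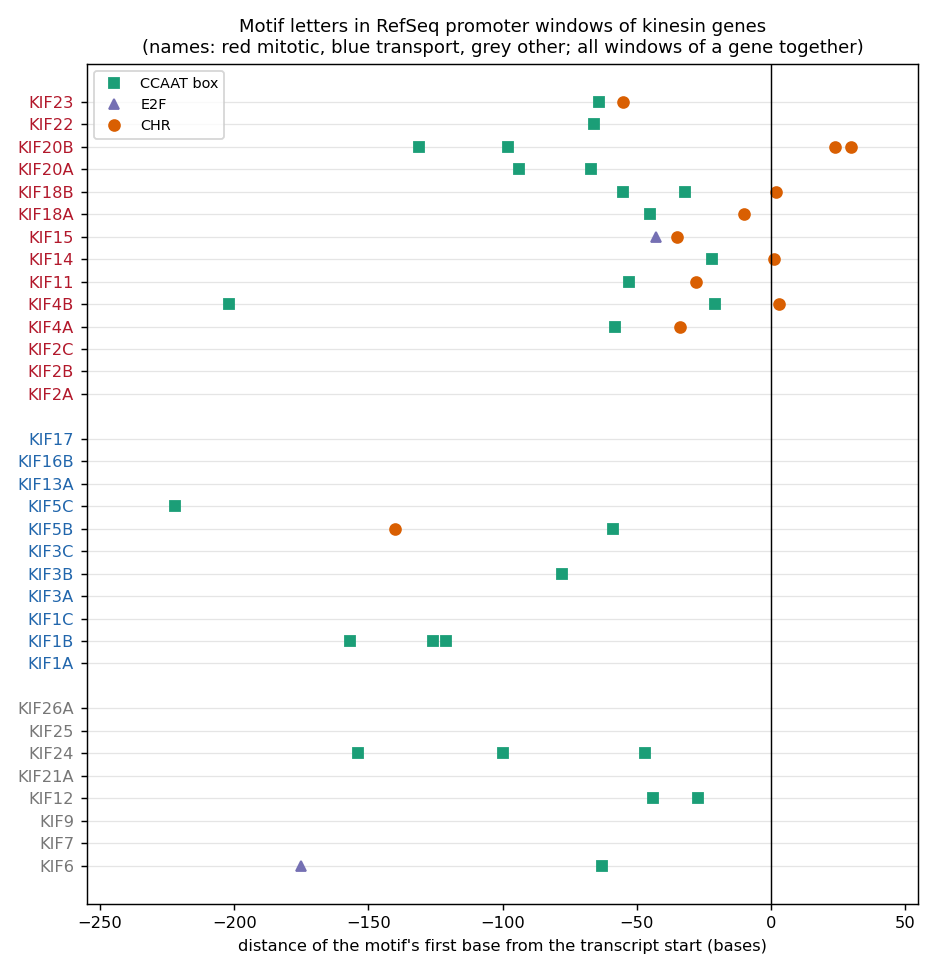
Distance in bases from the transcription start of every CHR, CCAAT and E2F match in the 300-base promoter windows of the kinesin genes, arranged by class. CHR matches of mitotic kinesins lie close to the start, from -55 in KIF23 to 30 in KIF20B, and 1 of 11 transport kinesins has one.

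Among transport kinesins, a single gene rose, KIF5C of the conventional kinesin heavy chains. KIF5B, the heavy chain of conventional kinesin in most tissues, stood at 12.66 and 12.44 in control libraries and 12.69 and 12.59 in GNA13-deficient ones. Genotypes overlapped, and the difference was 0.09 (SE 0.09, 95% confidence interval -0.15 to 0.33, adjusted p = 0.498). KIF5C, a heavy chain best known from neurons (GRCh37 chr2:149632819-149883273), stood at 7.60 and 7.21 against 8.82 and 8.58. Its rise of 1.30 (SE 0.18, adjusted p = 0.00758), a factor of 2.46, was larger than that of any other called kinesin of the 33. KIF5A, another neuronal heavy chain, had 0 and 2 reads against 2 and 0 and was at or under the floor of 3 reads in all libraries.

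None of the kinesin-3 transport motors, which carry vesicles and organelles, passed the test. KIF1C, a vesicle motor, was 11.03 and 11.12 against 11.26 and 11.23, with no overlap and a difference of 0.17 (95% interval 0.02 to 0.32, unadjusted p = 0.0344, adjusted p = 0.0901). KIF1B, which carries mitochondria and synaptic vesicle precursors, was 8.92 and 8.90 against 9.13 and 8.82, and the genotypes overlapped (difference 0.06, adjusted p = 0.755). KIF13B was 10.38 and 10.48 against 10.74 and 10.51 (difference 0.20, adjusted p = 0.205). KIF16B, which moves early endosomes, was 8.75 and 8.52 against 8.67 and 8.71, and the genotypes overlapped (difference 0.05, adjusted p = 0.766). KIF1A, the axonal vesicle motor, had 2 and 2 reads in control libraries and 0 and 1 in GNA13-deficient ones and passed the filter through the control libraries, so no fold is given for it.

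The kinesin-2 motors, which drive intraflagellar transport and carry other cargo as heterotrimers, did not pass the test. KIF3A was 9.36 and 9.05 in control libraries and 8.94 and 8.77 in GNA13-deficient ones (difference -0.35, SE 0.13, adjusted p = 0.113), with -0.20 without control replicate 1 and -0.51 without control replicate 2. KIF3C was 8.41 and 8.84 against 8.19 and 8.24 (difference -0.41, SE 0.16, adjusted p = 0.128), and it was -0.63 without control replicate 1, where it passed (adjusted p = 0.0308), and -0.20 without control replicate 2 (adjusted p = 0.42). In both of these genes the GNA13-deficient libraries were below the control libraries. KIF3B, the partner of both, overlapped between genotypes at 9.28 and 9.13 against 9.23 and 9.05 (difference -0.06, adjusted p = 0.694), and its difference changed sign under either alternative scaling. KIFAP3, the accessory subunit that binds the KIF3 motors, rose by 0.44 (SE 0.06, adjusted p = 0.00882). KIF17, a homodimeric kinesin-2, had only 5 and 11 reads against 11 and 13, which gave a difference of 0.76 that did not pass (adjusted p = 0.322).

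In the ciliary and other group, KIF24 and KIF21A rose. KIF24, which sits at centrioles and restrains the growth of cilia, stood at 8.60 and 8.82 in control libraries and 9.65 and 9.52 in GNA13-deficient ones, a rise of 0.87 (SE 0.11, adjusted p = 0.00597). KIF21A, which limits the growth of microtubule plus ends, stood at 9.33 and 9.04 against 10.18 and 10.01, a rise of 0.91 (SE 0.12, adjusted p = 0.00763). Neither gene overlapped between genotypes. KIF21B, a relative of KIF21A, was 10.43 and 10.44 against 10.37 and 10.31, a difference of -0.09 that did not pass (adjusted p = 0.291) and that turned positive under median centring. KIF7, a motor-like protein of Hedgehog signaling at the ciliary tip, had 17 and 34 reads against 16 and 9 (difference -0.93, adjusted p = 0.234). Its relative KIF27 was 7.60 and 7.33 against 8.26 and 7.74 (difference 0.53, adjusted p = 0.138), and 18.9% of its 50-base words occur in other genes. KIF27 passed under quantile normalization (difference 0.80, adjusted p = 0.0306) and median centring (difference 0.74, adjusted p = 0.0472), and its difference lay between 0.27 and 0.80 with 1 library left out. KIF9 did not pass (difference 0.20, adjusted p = 0.506), and KIF12 and KIF26B had between 0 and 6 reads in every library.

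Of the remaining kinesin genes whose symbols fall outside the pattern, STARD9, a kinesin of the centriole and spindle pole, fell. It stood at 9.32 and 9.16 in control libraries and 8.53 and 7.96 in GNA13-deficient ones, a fall of 1.00 on the log2 scale (SE 0.20, adjusted p = 0.0235) with no overlap. KIFC2 had 213 and 199 reads against 153 and 72 (difference -0.90, adjusted p = 0.124). The KIFC2 difference was -1.41 without GNA13-deficient replicate 1 (adjusted p = 0.0118) and -0.39 without GNA13-deficient replicate 2 (adjusted p = 0.202). KIFC3 had at most 5 reads in any library.

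Expressed per kilobase of transcript, which allows levels of different genes to be compared, the order of the leading kinesins of the symbol pattern differed between genotypes. In control libraries KIF22 (1082 and 1064 normalized reads per kilobase) and KIF5B (1103 and 945) led and overlapped with each other, followed by KIF11 (767 and 702) and KIF2C (696 and 685). In GNA13-deficient libraries KIF22 stood alone at 2025 and 2238, followed by KIF2C (1331 and 1304) and KIF11 (1327 and 1223), which overlapped, and then KIF5B (1125 and 1053). KIFC1, outside the pattern, stood at 774 and 789 in control libraries, above KIF11, and at 1044 and 1084 in GNA13-deficient ones, overlapping KIF5B. KIF2A fell per kilobase from a control mean of 343, above the control means of KIF4A (278), KIF1C (272), KIF18B (217) and KIF15 (191), to a mean of 255 in GNA13-deficient cells, below those of KIF4A (439), KIF18B (423), KIF15 (362) and KIF1C (306). These lengths are those of 1 annotated transcript for each gene, so levels between genes depend on that choice.

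Summed over each class, reads recovered from the normalized values gave the balance between mitotic and transport motors in each library. Mitotic kinesins held 19101 and 18147 reads in control libraries and 29400 and 26953 in GNA13-deficient ones. Transport kinesins held 12409 and 11950 against 13235 and 11680. Of these transport reads KIF5B alone held 6356 and 5636 against 6431 and 5743, so the transport sums depend largely on this gene. The mitotic share of all kinesin reads was 55.9% (95% Wilson interval 55.3 to 56.4) and 55.2% (54.7 to 55.8) in control libraries and 63.5% (63.1 to 63.9) and 64.5% (64.0 to 65.0) in GNA13-deficient ones, where intervals cover counting error only. The ratio of mitotic to transport reads was 1.54 and 1.52 in control libraries and 2.22 and 2.31 in GNA13-deficient ones, and per kilobase it was 2.54 and 2.56 against 3.94 and 4.16. The genotypes did not overlap in this ratio, in which any scaling of a whole library cancels. Relative to 1000000 mapped reads, mitotic kinesins went from 654 and 575 to 975 and 908 reads, while transport kinesins were 425 and 379 against 439 and 393 and overlapped.

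**Figure D4:**
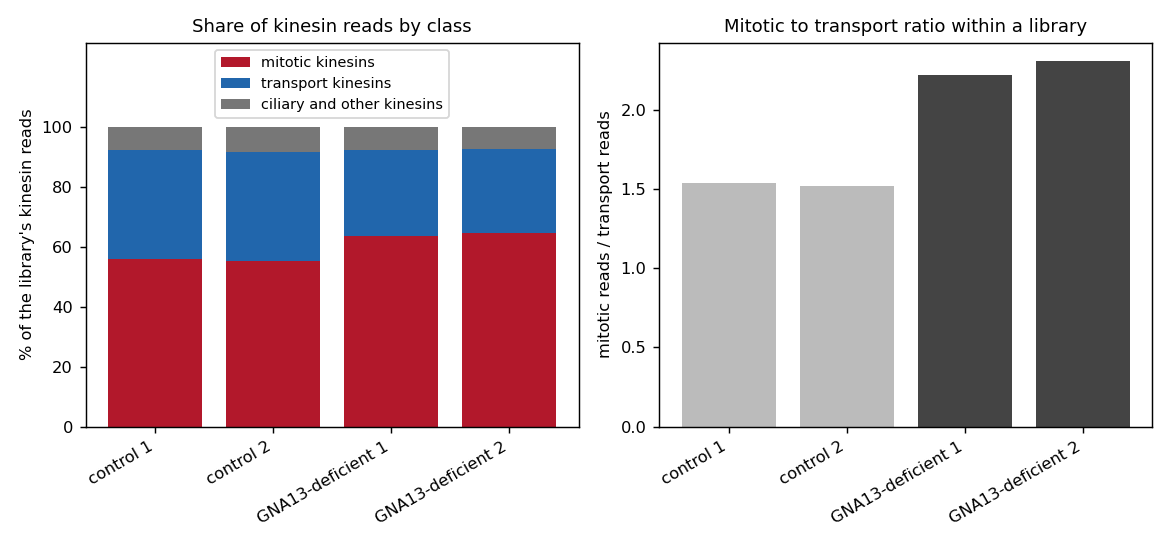
Share of all kinesin reads held by mitotic, transport and other kinesins in each of the 4 libraries, in percent of reads recovered from the deposited values. The mitotic share is 55.9% and 55.2% in control libraries and 63.5% and 64.5% in GNA13-deficient libraries.

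Within pairs of related kinesins the balance shifted for some and not for others, and these ratios too are free of library scaling. The log2 ratio of KIF2C to KIF2A was -0.48 and -0.45 in control libraries and 0.87 and 0.91 in GNA13-deficient ones, so KIF2C went from fewer to more normalized reads than KIF2A. Per kilobase, KIF2C made up 66.6% and 67.1% of this pair in control libraries and 83.6% and 84.0% in GNA13-deficient ones. The ratio of KIF21A to KIF21B rose from -1.10 and -1.41 to -0.20 and -0.30, and KIF21A from 40.6% and 35.6% of the pair per kilobase to 56.1% and 54.3%. KIF5C remained the minor heavy chain beside KIF5B, at 2.47% and 2.20% of the pair per kilobase in control libraries and 5.46% and 4.98% in GNA13-deficient ones. KIF18B gained on KIF18A, from 0.34 and 0.48 to 1.03 and 0.96. KIF20A and KIF20B kept overlapping ratios, with KIF20B over KIF20A at -0.39 and -0.57 against -0.51 and -0.45. KIF3A over KIF3B was 0.08 and -0.08 in control libraries and -0.30 and -0.28 in GNA13-deficient ones, a difference of -0.29. None of these ratios was tested, and neither KIF3A nor KIF3B passed the test alone.

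**Figure D5:**
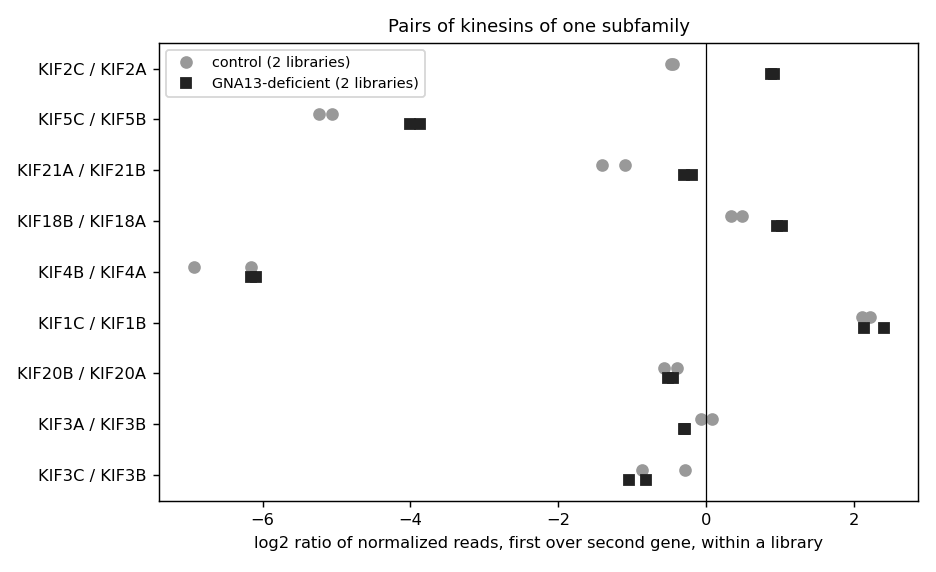
Log2 ratio of normalized reads between related kinesins in each of the 4 libraries, points being libraries and colours the genotypes. The ratio of KIF2C to KIF2A crosses 0, from -0.48 and -0.45 in control to 0.87 and 0.91 in GNA13-deficient libraries, whereas the ratios of KIF20B to KIF20A overlap.

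Most genes listed as partners of the mitotic kinesins rose in mRNA. Like the other gene lists, this list was chosen with earlier results of these data known. Genes of light chains and cargo adaptors were called at a share near that of all genes. Of 18 partners of the mitotic kinesins 15 rose, 1 fell (NUMA1) and 2 did not pass (PRC1 and CKAP5), with a median difference of 0.61, and 88.9% were called against 29.7% of all tested genes. AURKB, the kinase of the chromosomal passenger complex, stood at 10.95 and 10.94 in control libraries and 11.99 and 12.11 in GNA13-deficient ones, a rise of 1.11 (SE 0.06, adjusted p = 0.00128). CDCA8, another subunit of that complex, rose by 0.88 (adjusted p = 0.00159), and TPX2, which brings Aurora A to the spindle, rose by 0.86 (adjusted p = 0.00151). RACGAP1, the other subunit of centralspindlin beside KIF23 and chosen after its values were seen, rose by 0.55 (adjusted p = 0.00342), close to the 0.60 of KIF23. PRC1, the midzone crosslinker that recruits KIF4A, differed by -0.10 and did not pass, and NUMA1, which anchors dynein at the poles, fell by 0.42 on the log2 scale (adjusted p = 0.016). Of 17 light chains and adaptors of the transport kinesins 2 rose and 4 fell, with a median of -0.12, and the 35.3% called lay near the 29.7% of all tested genes. Among those that fell were TRAK1, which links kinesin-1 to mitochondria (difference -0.64, adjusted p = 0.00701), and the light chains KLC1 (difference -0.41, adjusted p = 0.012) and KLC2. The risers were KIFAP3 and PLEKHM2, the latter an adaptor between lysosomes and kinesin-1.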

How the data were processed

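Bulk mRNA (TruSeq Stranded mRNA) of 4 libraries was aligned by the authors to hg19 with STAR, and HTSeq is named in the submitters' processing notes; the annotation, the strand setting of the counting and the normalization method are not given in the sources used here. The authors deposited log2 normalized reads for 25066 genes in 1 table, with a first row of linear total mapped reads, so the column mixes units. Whole reads were recovered from the values: 100% of nonzero values up to 400 reads were whole within a tolerance of 0.02 reads plus rounding. In control replicate 2 no gene was at 1 read, so a 0 there can be 1 read. Genes above 0 in at least 2 libraries were fitted with limma 3.58.1 in R 4.3.3 (empirical Bayes with a mean trend), adjusted by Benjamini-Hochberg over all 16945 genes and called at 0.05. The script was tested on simulated data. The members, gene lists and tests were chosen with earlier results of these data known. Genes named outside the family were the 3 called members of each related list with the largest absolute difference, plus those said to be chosen after their values were seen and single members of small counts. Alternatives were no filter, a stricter filter, another scaling, another pseudocount, no trend, a robust prior, a replicate block, voom on recovered reads, and leaving out each library. Lengths and overlaps came from GENCODE v44 lifted to GRCh37, promoters from RefSeq (GRCh38.p14). A member of the list of light chains and adaptors is not reported here by name.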

Additional observations from a re-analysis of the deposited data

How the results depend on the processing

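The number of genes called fell from 5037 to 1999 with no filter on low values, to 2718 with no mean-variance trend and to between 2975 and 3675 when 1 library was left out. The mitotic kinesins called higher fell from 11 to 5 with no filter and to 6 with no trend, lay between 9 and 11 with 1 library left out, and numbered 11 under median centring and 12 under quantile normalization. Without the filter KIF14, KIF15, KIF18A, KIF20A, KIF20B, KIF23, KIF5C, KIF21A, KIF24 and STARD9 lost their calls, and with no trend KIF2A (adjusted p = 0.0573), KIF15, KIF18A, KIF20A, KIF20B, KIF23, KIFC1 and STARD9 did, with the direction of each kept; the cause was not tested. Transport kinesins called lower numbered 1 with no filter and 1 with no trend, in both KIF1A, whose 0 to 2 reads a library support no direction, 2 with the filter at the median level (KIF3A and KIF3C) and 0 to 1 with 1 library left out. The mitotic median of 0.80 became 1.00 under median centring and lay between 0.68 and 0.86 with 1 library left out. The transport median of 0.06 became 0.16 under quantile normalization and 0.27 under median centring, where KIF1C, KIF5B and KIF13B also passed, and it lay between -0.0185 when control replicate 2 was missing and 0.1635 when GNA13-deficient replicate 2 was. The mitotic minus transport median of 0.74 became 0.55 under quantile normalization and lay between 0.69 and 0.76 with 1 library left out.

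Kinesins whose difference changed sign had not passed the test. Under median centring KIF3B became 0.145 and KIF21B 0.114, and under quantile normalization KIF3B became 0.0433 and KIF5B -0.0274. With a pseudocount of 10, KIF12 became -0.00965. With 1 library left out, the difference lay between -0.0935 (GNA13-deficient replicate 1 left out) and 0.2165 for KIF1B, and between -0.155 and 0.029 for KIF3B, which was above 0 when control replicate 1 (0.014) or GNA13-deficient replicate 2 was the one missing. The range was -0.4585 to 0.5485 for KIF5A and -0.023 to 0.424 for KIF9, both negative when control replicate 1 was missing. It was -0.0185 to 0.2035 for KIF5B and -0.0625 to 0.1675 for KIF16B, both negative when control replicate 2 was missing. It was -1.2465 to 1.3635 for KIF12 and -0.7465 to 0.8635 for KIF26B, both lowest when control replicate 2 was missing and also negative (-0.20 and -0.70) when GNA13-deficient replicate 1 was. Where 1 library was left alone in its genotype, it was assumed to vary like the other genotype.

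Control and GNA13-deficient libraries share replicate numbers, but no source says that a number pairs them. Deviations of same-numbered libraries correlated at 0.45 over 8473 genes. A fit with the replicate block called 6616 genes, 11 mitotic kinesins higher and 1 transport kinesin (KIF3A) lower, and KIF27 (adjusted p = 0.0294), KIFC2 (0.0406) and CENPE (0.0398) also passed.

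KIF5A, KIF1A, KIF12 and KIF26B are limited by depth, with at most 6 reads in any library, and 3 reads correspond to a log2 value of 1.56 to 1.69. A filter at 3 recovered reads in 2 libraries, chosen after seeing the data, left 11 mitotic kinesins called higher and 0 transport kinesins called lower.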

Other observations

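Of 17 tested tubulins and microtubule end binders 6 rose and 1 fell, with a median difference of 0.14, and 41.2% were called against 29.7% of all tested genes. TUBA1B, an alpha-tubulin of dividing cells, rose by 0.98 (limma adjusted p = 0.00339), TUBB3, a beta-tubulin best known from neurons, by 0.75 (adjusted p = 0.00909) and TUBB4B, listed as TUBB2C, by 0.74 (adjusted p = 0.00864). Tubulin genes are near-identical in sequence, and how reads shared between them were counted is not given in the sources used here.

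Of 23 genes of cytoplasmic dynein and dynactin, the minus-end motor and its activator, 2 rose and 1 was called lower, with a median difference of 0.05, and the 13.0% called lay below the 29.7% of all tested genes, a difference that was not tested. DYNLT3, a dynein light chain, rose by 0.98 (adjusted p = 0.00169), and DYNC1LI1, a light intermediate chain, by 0.20 (adjusted p = 0.049). The gene called lower, DYNC1I1, an intermediate chain best known from neurons, had 15 and 7 reads in control libraries and 1 and 0 in GNA13-deficient ones. DYNC1I1 passed the filter through the control libraries, where it was higher, so its call is given as these counts and no fold is stated.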
